A study of Homo sapiens with 12 samples.

Results

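The insulin-like growth factor (IGF) binding proteins IGFBP1 to IGFBP7 and the receptors IGF1R and IGF2R were followed in human embryonic stem cells (ESCs) and in the embryoid bodies (EBs) grown from them. These 9 genes, of 18665 genes named on the array, were found by their platform symbol. They were represented by 11 probes, 2 each for IGFBP3 and IGFBP5 and 1 each for the other 7 genes, and 10 of the 11 probes passed the detection filter. The data were 12 one-colour bead arrays of total RNA. Undifferentiated SNUhES3 cells, an established ESC line, were on 4 arrays, EBs after 1 week of culture on 4 arrays and EBs after 2 weeks on 4 arrays. The ESC cultures had basic FGF and a layer of mitotically arrested STO cells, mouse fibroblasts that act as feeders, and the EBs floated in the same kind of medium without basic FGF. All groups derive from 1 cell line with no genetic change stated. An EB is a floating aggregate in which several cell types form at once, so each array measured a mixture. The labels do not say if replicate arrays hold separate cultures, so that p-values measure only the spread between arrays, which may be technical.

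IGF1 and IGF2 are secreted growth factors that signal through IGF1R, a receptor tyrosine kinase that acts on the PI3K and AKT pathway. IGF2R, the cation-independent mannose 6-phosphate receptor, carries lysosomal enzymes and takes IGF2 to the lysosome for breakdown. The binding proteins hold most extracellular IGF, limit or prolong its access to IGF1R, and release it when proteases cut them. IGF signalling is known to support the survival and self-renewal of human ESCs, and IGF2 is a major growth factor of the early embryo.

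Values are log2 signals after background correction and quantile normalization, and a difference of 1 on this scale is 2-fold. A probe was detected on an array at a detection p-value under 0.01. Each comparison was tested with limma over all 15921 kept probes, and the adjusted p-values below are Benjamini-Hochberg values from these fits. A probe was called changed at an adjusted p under 0.05 with a log2 difference of at least 1 in either direction, and "rose" and "fell" are used of called probes only. Both comparisons with ESCs use the same 4 ESC arrays. Mean signal per array ran between 718 and 1092 and the number of detected probes between 14045 and 15905, with both minima on the second 2-week array. Within ESCs and within 1-week EBs, array 1 was most like array 2, and array 3 was most like array 4. Correlations across all kept probes were 0.997 to 0.998 within these pairs, against at most 0.983 between pairs in ESCs and 0.992 in 1-week EBs. These pairs ran across both groups: after removing group means, arrays of corresponding pairs in 1-week EBs and in ESCs (1 and 2 with 1 and 2, 3 and 4 with 3 and 4) correlated at 0.126 to 0.258, and arrays of opposite pairs at -0.26 to -0.073. The labels name no batch that matches these pairs. Every call described below for a binding protein held in arrays 1 and 2 alone and in arrays 3 and 4 alone.

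IGFBP3, IGFBP5 and IGFBP6 carried the largest measured rises and the largest measured fall among these genes. The 250 bases before their annotated starts are shown for that reason, in RefSeq sequence of build GRCh38.p14, 5′ to 3′ on the gene's strand. Capitals mark matches on either strand to TATANA, the core letters of a TATA element, and to GGGCGG, the core letters of a GC box.
IGFBP3, chr7:45921273-45921522, minus strand: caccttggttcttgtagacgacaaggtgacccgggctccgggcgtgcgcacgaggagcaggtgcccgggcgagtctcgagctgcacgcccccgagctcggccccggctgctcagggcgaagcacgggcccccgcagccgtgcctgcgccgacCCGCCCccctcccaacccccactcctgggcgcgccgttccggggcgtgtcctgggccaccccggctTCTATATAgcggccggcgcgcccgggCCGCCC
IGFBP5, chr2:216695550-216695799, minus strand: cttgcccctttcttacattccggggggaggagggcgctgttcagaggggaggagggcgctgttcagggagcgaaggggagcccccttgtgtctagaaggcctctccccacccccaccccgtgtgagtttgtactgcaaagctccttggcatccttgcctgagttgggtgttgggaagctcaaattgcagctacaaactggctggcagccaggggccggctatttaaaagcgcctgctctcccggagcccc
IGFBP6, chr12:53097417-53097666, plus strand: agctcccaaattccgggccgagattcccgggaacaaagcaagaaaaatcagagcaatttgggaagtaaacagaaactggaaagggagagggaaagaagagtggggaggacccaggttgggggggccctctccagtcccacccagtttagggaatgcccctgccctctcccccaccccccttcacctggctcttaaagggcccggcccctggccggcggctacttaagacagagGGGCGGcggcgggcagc
In the IGFBP3 window, 3 matches to TATANA overlapped in 1 run of letters, with the forward match at position -30 counted from the start, and GGGCGG matched at positions -98 and -6 on the opposite strand. The IGFBP5 window held neither set of letters and the IGFBP6 window held GGGCGG at -17. Of 35116 promoter windows of this length in the table, 17.7% held TATANA and 42.6% held GGGCGG. G and C made up 76% of the IGFBP3 window and 61.2% of both the IGFBP5 and the IGFBP6 window, against a median of 58% over all windows. Among the other members, IGFBP4 had TATANA at -29. These matches describe letters only, and 7 of the 9 members had a window in the table.

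After 1 week, 7 of the 10 tested probes were called against ESCs, where 8.85% of all tested probes were called. The 5 that rose belonged to IGFBP3, IGFBP5 and IGFBP7, where 5.48% of all probes rose, and the 2 that fell belonged to IGFBP2 and IGFBP6, where 3.37% of all probes fell. After 2 weeks, 5 of the 10 were called against ESCs, all of them the same IGFBP3, IGFBP5 and IGFBP7 probes and all higher, where 14.1% of all probes were called, 7.52% rose and 6.54% fell. None of the 10 was called between 2-week and 1-week EBs, where 1.28% of all probes were called, 0.791% higher and 0.490% lower.

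For differences of any size at an adjusted p under 0.05, the counts were 8 of 10 at 1 week, 9 of 10 at 2 weeks and 7 of 10 between the weeks, against 49.0%, 59.8% and 22.8% of all probes. The arrays of the groups compared did not overlap for 8, 9 and 7 of the 10 probes in the same order, against 46.0%, 53.2% and 30.0% of all probes. The median log2 difference over the 10 probes was 0.90 at 1 week, 1.36 at 2 weeks and 0.67 between the weeks, beside -0.0036, -0.026 and -0.011 over all tested probes. IGFBP3 and IGFBP5 enter these counts and medians with 2 probes each, all of which lay above the medians. The medians therefore describe probes and stand higher than they would with 1 probe per gene. IGFBP7 passed the detection filter only through its EB arrays, so its part in these counts was largely set by the filter.

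**Figure D1:**
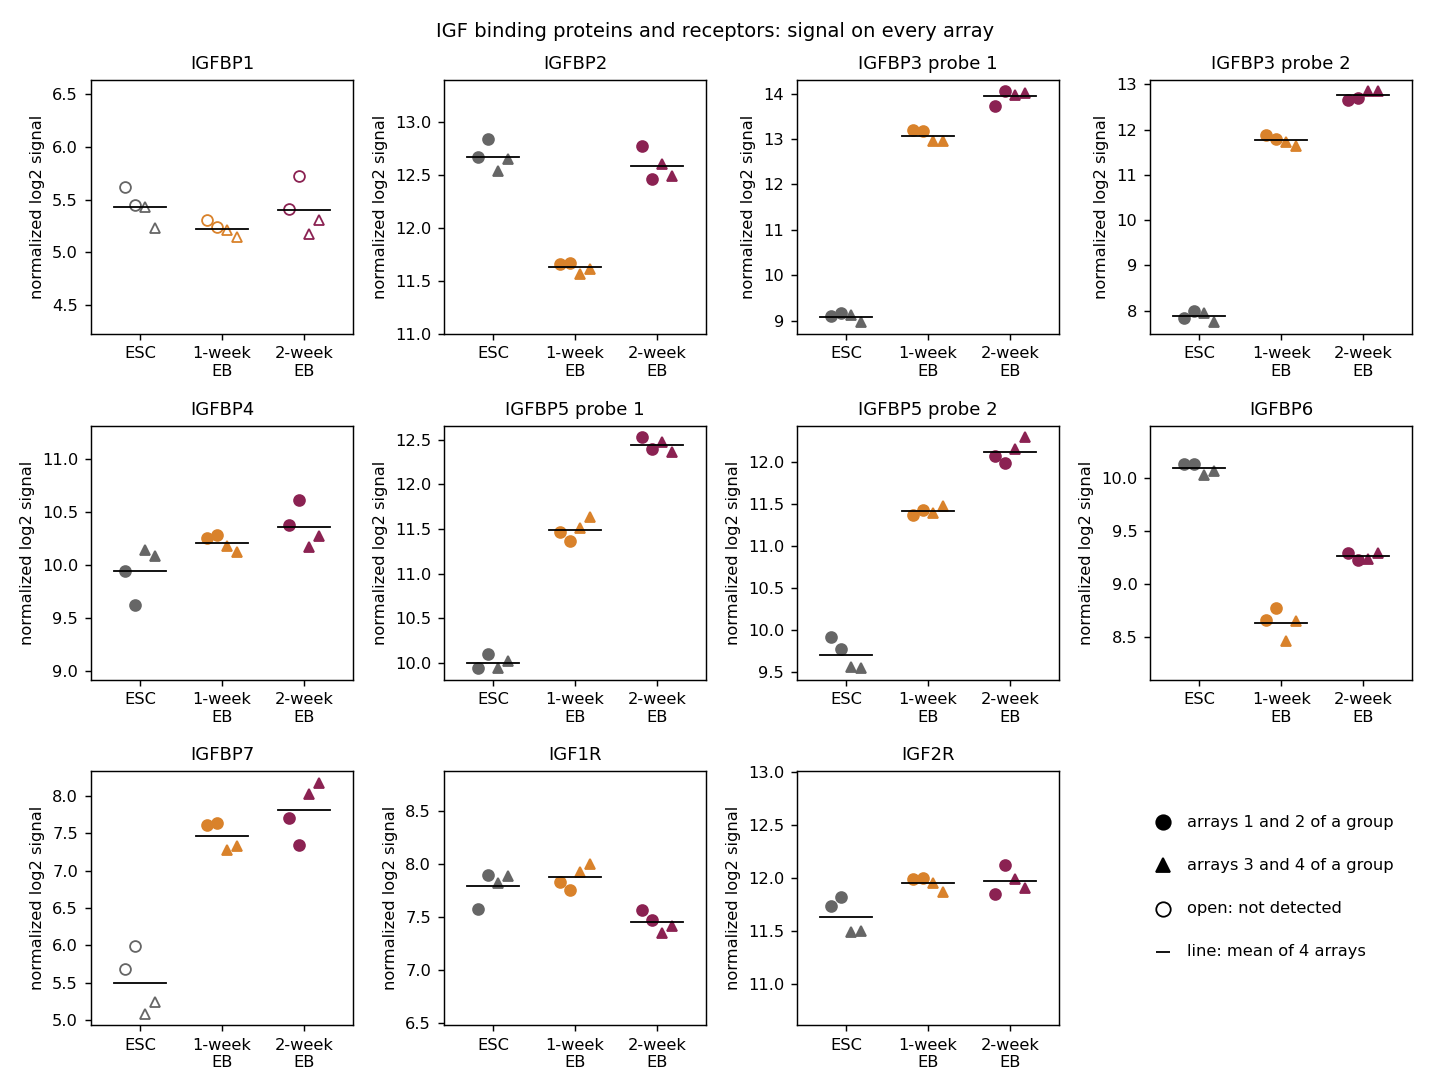
Normalized log2 signal of each probe (y axis) on the 4 ESC, 4 1-week EB and 4 2-week EB arrays (x axis). Circles are arrays 1 and 2 and triangles arrays 3 and 4 of a group, open symbols are arrays on which the probe was not detected, and lines are group means. IGFBP3 and IGFBP5 are higher at each later stage, IGFBP2 and IGFBP6 are lowest at 1 week, and IGFBP1 is open on all 12 arrays. Each panel has its own y axis, which does not start at 0.

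IGFBP3, the main IGF carrier of blood plasma and a secreted binding protein, changed the most. Its brighter probe (ILMN_1746085, called probe 1 here) read 9.10, 9.17, 9.11 and 8.96 on the ESC arrays. It read 13.21, 13.18, 12.95 and 12.96 on the 1-week arrays and 13.73, 14.05, 13.98 and 14.01 on the 2-week arrays. The 3 groups did not overlap, and every 2-week array was above every 1-week array. The transcript rose 15.9-fold at 1 week (log2 3.99, SE 0.09, adjusted p = 1.03e-12, n = 4 arrays each) and 29.0-fold at 2 weeks (log2 4.86, adjusted p = 8.89e-14), each against ESCs.

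The second IGFBP3 probe (ILMN_2396875) gave 7.83, 7.98, 7.95 and 7.74 in ESCs, 11.89, 11.80, 11.73 and 11.63 at 1 week, and 12.65, 12.69, 12.84 and 12.85 at 2 weeks. Again no array of one group reached the range of another. Its differences from ESCs, 14.8-fold at 1 week and 29.5-fold at 2 weeks, were close to those of the first probe. Between 2-week and 1-week EBs the log2 differences were 0.87 for probe 1 (adjusted p = 3.29e-05) and 0.99 for probe 2 (adjusted p = 6.01e-06), both under the 2-fold minimum. The second of these stood so near the minimum that it passed in some alternatives, with 1.04 when the first 1-week array was left out. Among probes detected on all arrays of both groups, the IGFBP3 probes ranked 6th and 7th of 13425 by log2 difference at 1 week. At 2 weeks they ranked 4th and 5th of 12842.

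IGFBP5, a binding protein that attaches to extracellular matrix and is abundant in bone and muscle, rose with a smaller fold. Probe 1 (ILMN_1750324) read 9.95, 10.10, 9.94 and 10.03 in ESCs, 11.47, 11.36, 11.51 and 11.63 in 1-week EBs, and 12.53, 12.40, 12.48 and 12.36 in 2-week EBs. Probe 2 (ILMN_2132982) read 9.91, 9.77, 9.56 and 9.54 in ESCs, 11.37, 11.42, 11.39 and 11.48 in 1-week EBs, and 12.07, 11.98, 12.15 and 12.30 in 2-week EBs. For both probes the groups lay in the order of time without overlap. At 1 week the rises were 2.81-fold (log2 1.49, SE 0.07, adjusted p = 2.88e-09) and 3.29-fold (log2 1.72, SE 0.09, adjusted p = 6.93e-09). At 2 weeks they were 5.41-fold and 5.39-fold, with adjusted p = 1.21e-11 and 1.31e-10.

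The second week added 0.95 on the log2 scale for IGFBP5 probe 1 (adjusted p = 4.30e-06) and 0.71 for probe 2 (adjusted p = 0.000181). In the authors' deposited series matrix, the 1-week rises of IGFBP5 had adjusted p = 0.0936 and 0.0666. There the second 2-week array stood at 9.50 and 9.07 for the IGFBP5 probes, against at least 12.17 on the other 2-week arrays. The 2-week rises were 1.67 and 1.66 there (adjusted p = 0.0311 and 0.0391), and the differences between 2-week and 1-week EBs were 0.29 and 0.064 (adjusted p = 0.772 and 0.955). Without that array, the 1-week rises were called in that table, the 2-week rises were 2.42 and 2.45, and the differences between the weeks were 1.04 and 0.86.

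IGFBP7, a secreted protein that binds IGFs weakly and is known from vascular and stromal tissue, was detected only in EBs. Its detection p lay between 0.0303 and 0.440 on the ESC arrays, so that none of the 4 passed. The normalized values of its probe (ILMN_2062468) were 5.68, 5.99, 5.08 and 5.24 in ESCs, 7.61, 7.63, 7.28 and 7.33 at 1 week, and 7.71, 7.34, 8.02 and 8.17 at 2 weeks. All 8 EB arrays were above all 4 ESC arrays, and the EB groups overlapped each other. Set against the lowest signals that count as detected, IGFBP7 was at least 1.30-fold higher in 1-week EBs and at least 1.65-fold higher in 2-week EBs than in ESCs. These bounds were not tested. The limma tests were of the fitted log2 differences of 1.96 and 2.31, which rest on undetected ESC values (adjusted p = 5.02e-06 and 6.10e-07). The 2-week and 1-week EBs differed by 0.35 (95% interval -0.10 to 0.80, adjusted p = 0.262), and the sign differed between array pairs, at -0.10 from arrays 1 and 2 and 0.79 from arrays 3 and 4.

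IGFBP6, which binds IGF2 with a marked preference over IGF1, fell in the first week. It read 10.14, 10.14, 10.03 and 10.07 in ESCs, 8.66, 8.78, 8.46 and 8.65 in 1-week EBs, and 9.30, 9.23, 9.24 and 9.29 in 2-week EBs. The ranges did not overlap, and the 2-week arrays lay between the other groups. The 1-week level was 0.364 times that of ESCs (log2 -1.46, SE 0.07, adjusted p = 2.81e-09). At 2 weeks the difference from ESCs was -0.83 (adjusted p = 4.89e-07), which is under the 2-fold minimum, and 2-week EBs were 1.55-fold above 1-week EBs (log2 0.63, adjusted p = 6.14e-05).

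IGFBP2, a binding protein abundant in fetal tissue and in the nervous system, was lowest at 1 week and back near its ESC level at 2 weeks. It read 12.67, 12.84, 12.54 and 12.65 in ESCs, 11.66, 11.67, 11.56 and 11.61 in 1-week EBs, and 12.78, 12.46, 12.60 and 12.49 in 2-week EBs. The 1-week arrays were below all others, whereas the 2-week and ESC arrays overlapped. The 1-week level was 0.484 times that of ESCs (log2 -1.05, SE 0.09, adjusted p = 4.03e-07). This call lay at the 2-fold minimum, and the difference was -0.99 with arrays scaled to equal medians and also -0.99 without the second ESC array. With equal medians the median of all probes moved to 0.13, and IGFBP2 stood 1.12 below it on the log2 scale.

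At 2 weeks IGFBP2 differed from ESCs by -0.09, with a 95% interval of -0.28 to 0.09 (adjusted p = 0.372). The 2-week EBs were 1.94-fold above the 1-week EBs (log2 0.95, SE 0.09, adjusted p = 9.75e-06), just under the 2-fold minimum. IGFBP2 and IGFBP6 thus shared a low at 1 week, while IGFBP3 and IGFBP5 were higher at each later stage.

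IGFBP4, the substrate of the protease PAPP-A and an inhibitor of IGF action in most settings, moved by less than 2-fold. It read 9.95, 9.62, 10.14 and 10.09 in ESCs, 10.25, 10.29, 10.18 and 10.13 in 1-week EBs, and 10.38, 10.62, 10.17 and 10.28 in 2-week EBs. The 1-week arrays overlapped the ESC arrays, and the 2-week arrays were all above them by a narrow gap. IGFBP4 exceeded its ESC level by 0.26 (95% interval 0.01 to 0.52, adjusted p = 0.0834) at 1 week and 0.41 (SE 0.12, adjusted p = 0.00909) at 2 weeks. The array pairs differed here. At 2 weeks the difference was 0.72 from arrays 1 and 2 (adjusted p = 0.00217) and 0.11 from arrays 3 and 4 (adjusted p = 0.211), and at 1 week it was 0.49 and 0.040.

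IGFBP1, a binding protein made mainly by liver and decidua, was not detected on any of the 12 arrays. Its signal lay between 80.2 and 124, and its detection p was 0.0593 to 0.208 in ESCs, 0.140 to 0.323 in 1-week EBs and 0.0395 to 0.254 in 2-week EBs. It was therefore not tested. IGFBP1 lies next to IGFBP3 among the protein-coding genes of chromosome 7, and IGFBP2 lies next to IGFBP5 on chromosome 2. In the pair on chromosome 2 the profiles differed, with IGFBP2 lower at 1 week beside the rise of IGFBP5. IGFBP1, undetected by its only probe, had no measured profile to set beside the rise of IGFBP3.

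**Figure D2:**
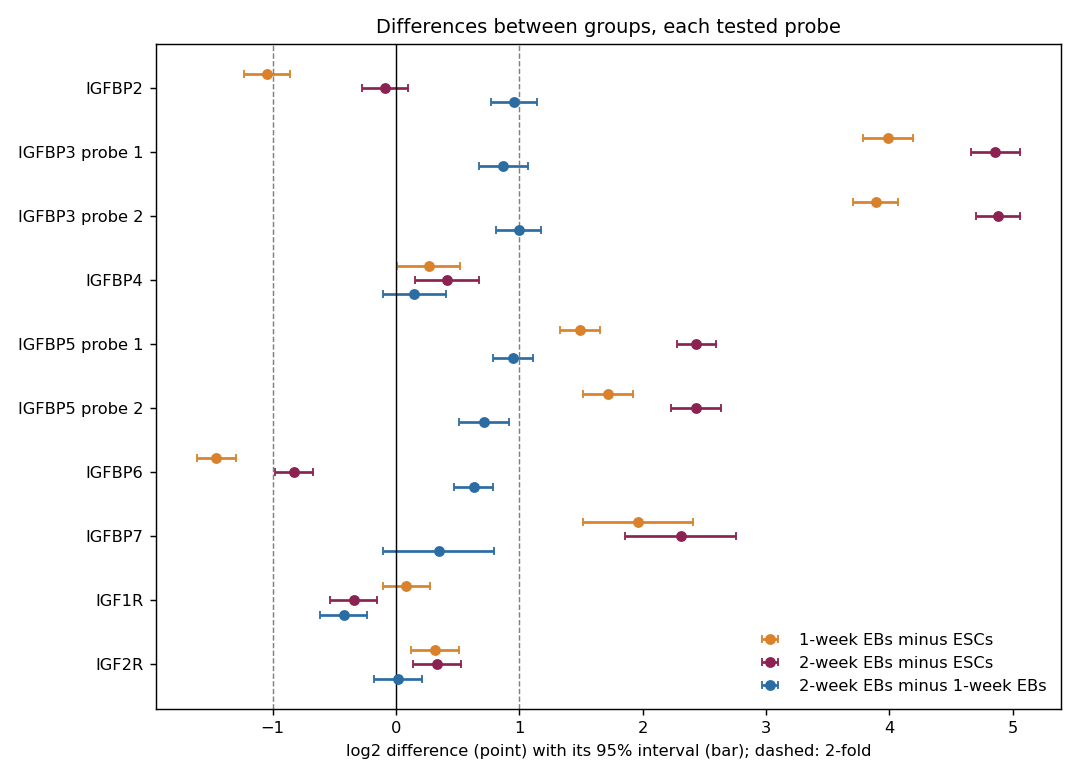
Log2 difference (x axis) of each tested probe (y axis) for 1-week EBs minus ESCs, 2-week EBs minus ESCs and 2-week minus 1-week EBs. Points are fitted differences over 4 arrays per group, bars are 95% intervals and dashed lines mark 2-fold. IGFBP3, IGFBP5 and IGFBP7 lie right of the 2-fold line in both comparisons with ESCs, and the receptors lie within 2-fold in all 3. IGFBP7 was undetected in ESCs, so its points against ESCs are fitted values and not measured folds.

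Neither receptor changed by 2-fold in any comparison. The single IGF1R probe was dim, with raw signals of 222 to 368 and a detection p of up to 0.00659. The offset of 16 added to each signal before the log shrinks differences of dim probes, so the IGF1R differences may be too small. IGF1R read 7.58, 7.90, 7.82 and 7.88 in ESCs, 7.83, 7.75, 7.92 and 7.997 in 1-week EBs, and 7.56, 7.47, 7.35 and 7.42 in 2-week EBs. The 2-week arrays were below all arrays of the other groups by a narrow gap, and the 1-week and ESC arrays overlapped. The 2-week EBs differed from ESCs by -0.34 (SE 0.09, adjusted p = 0.00441) and from 1-week EBs by -0.43 (SE 0.09, adjusted p = 0.00391). The 1-week EBs differed from ESCs by 0.08 (adjusted p = 0.465). Without background correction these differences were smaller in size, at -0.24, -0.29 and 0.058 in the same order. The IGF1R difference of 2-week EBs from ESCs was -0.22 (adjusted p = 0.123) with equal medians and -0.15 (adjusted p = 0.516) in the series matrix, where the difference from 1-week EBs was -0.20 (adjusted p = 0.494). Without the second 2-week array the series matrix gave -0.34 and -0.40 for these differences (adjusted p = 0.00838 and 0.0141). From arrays 1 and 2 alone they were -0.22 and -0.27 (adjusted p = 0.163 and 0.152), and from arrays 3 and 4 alone -0.47 and -0.58.

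IGF2R read 11.74, 11.82, 11.49 and 11.50 in ESCs, 11.99, 12.001, 11.96 and 11.87 in 1-week EBs, and 11.85, 12.12, 11.99 and 11.90 in 2-week EBs. All EB arrays were above all ESC arrays by a narrow gap, and the EB groups overlapped. IGF2R exceeded its ESC level by 0.32 (SE 0.09, adjusted p = 0.0110) at 1 week and 0.33 (adjusted p = 0.00661) at 2 weeks, and the 2-week difference turned to -0.34 (adjusted p = 0.571) in the series matrix, where the second 2-week array stood at 9.48. Without that array it was 0.27 there. With equal medians the 2-week adjusted p was 0.064, and the 1-week adjusted p was 0.703 in the series matrix. The second 2-week array enters that 1-week test only through the shared spread. Without it the same 1-week difference of 0.30 had adjusted p = 0.0226 there. The ESC arrays differed by pair, with means of 11.78 for arrays 1 and 2 and 11.50 for arrays 3 and 4, so that the 2-week difference was 0.21 from the first pairs (adjusted p = 0.156) and 0.45 from the second. Between 2-week and 1-week EBs the difference was 0.01 (95% interval -0.18 to 0.21, adjusted p = 0.935), and its sign turned in several alternatives.

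**Figure D3:**
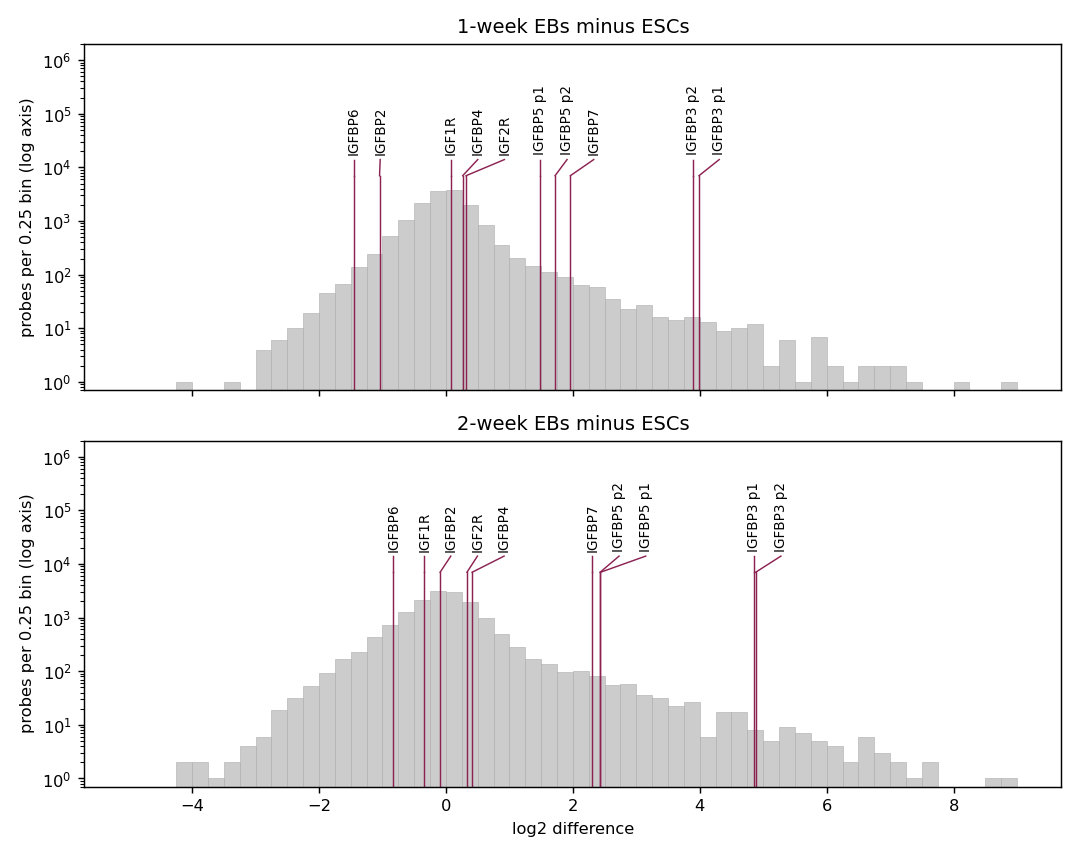
Distribution of log2 differences over all 15921 tested probes in bins of 0.25 (grey, log y axis), for 1-week EBs minus ESCs (top) and 2-week EBs minus ESCs (bottom). Lines mark the 10 tested probes of the binding proteins and receptors. The IGFBP3 probes lie in the far right tail at 3.89 and 3.99 (top) and at 4.86 and 4.88 (bottom), while IGF1R, IGF2R and IGFBP4 lie in the bulk. Probes undetected in a group, IGFBP7 among them, stand at fitted values.

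Other genes of the IGF system were counted from lists, with 1 probe per gene. Over all 10562 genes tested in this way, 6.09% were higher and 3.07% lower at 1 week, and 8.27% were higher and 6.02% lower at 2 weeks. Of 4 ligands and partners named on the array, only IGF2 was detected. It was undetected in ESCs and averaged 10.02 ± 0.12 in 1-week EBs and 10.65 ± 0.09 in 2-week EBs (SD, n = 4). IGF2 was at least 7.63-fold and at least 11.8-fold higher there than in ESCs, bounds that were not tested. The limma tests of its fitted differences gave adjusted p = 1.73e-12 and 3.64e-13. The other IGF2 probe, also undetected in ESCs, gave fitted log2 differences of 4.22 and 4.66. Like IGFBP7, IGF2 passed the detection filter only through its EB arrays, so that these calls were largely set by the filter. IGF1, INS and IGFALS, which encodes the acid-labile subunit that joins IGFBP3 in the plasma complex, were not detected in any group.

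PAPPA, the gene of the protease PAPP-A that cuts IGFBP4 and IGFBP5, was the only protease or inhibitor called. It averaged 9.60 ± 0.30 in 1-week EBs and 10.43 ± 0.22 in 2-week EBs, against 7.36 ± 0.16 in ESCs (SD, n = 4 each). It thus rose 4.72-fold at 1 week and 8.37-fold at 2 weeks (adjusted p = 4.80e-08 and 1.25e-09). STC1 and STC2, the stanniocalcins that inhibit PAPP-A, and HTRA1, a secreted serine protease, were tested and not called. Their log2 differences from ESCs were -0.16, 0.26 and 0.21 at 1 week and -0.40, -0.03 and 0.36 at 2 weeks. PAPPA2, ADAM12 and ADAM28 were not detected in any group.

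The IGF2 mRNA-binding proteins IGF2BP1, IGF2BP2 and IGF2BP3 were detected in all groups, and 0 of 3 were called in any comparison. Their log2 differences from ESCs were 0.08, 0.15 and -0.09 at 1 week and 0.07, 0.23 and -0.20 at 2 weeks. None of 7 tested insulin receptor relatives and adaptors was called, of 11 named on the array, and INSR was among the 4 that were not detected. None of 11 tested genes of mannose 6-phosphate sorting, the lysosomal route that IGF2R serves, was called either, of 12 named. The median log2 difference of the sorting genes was 0.20 at 1 week and 0.24 at 2 weeks, beside 0.0082 and -0.016 over all genes.

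Of 13 tested genes of the PI3K, AKT and mTOR pathway, 1 was higher at 1 week, 2 were higher at 2 weeks and 0 were lower at either time. PIK3R1, a regulatory subunit of PI3K, averaged 9.79 ± 0.10 in 1-week EBs and 10.20 ± 0.07 in 2-week EBs, against 7.97 ± 0.12 in ESCs (SD, n = 4 each). Its rises were 3.53-fold and 4.69-fold (adjusted p = 6.03e-10 and 4.82e-11), and its other probe gave log2 differences of 1.23 and 1.73. AKT1, the kinase downstream, was 2.09-fold higher at 2 weeks (log2 1.06, SE 0.09, adjusted p = 4.49e-07). That value was under the minimum, at 0.98, without the second ESC array, and was 0.97 from arrays 3 and 4 alone. At 1 week AKT1 differed by 0.87 and was not called. The other AKT1 probe gave log2 differences of 0.87 at 1 week and 1.17 at 2 weeks.

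**Figure D4:**
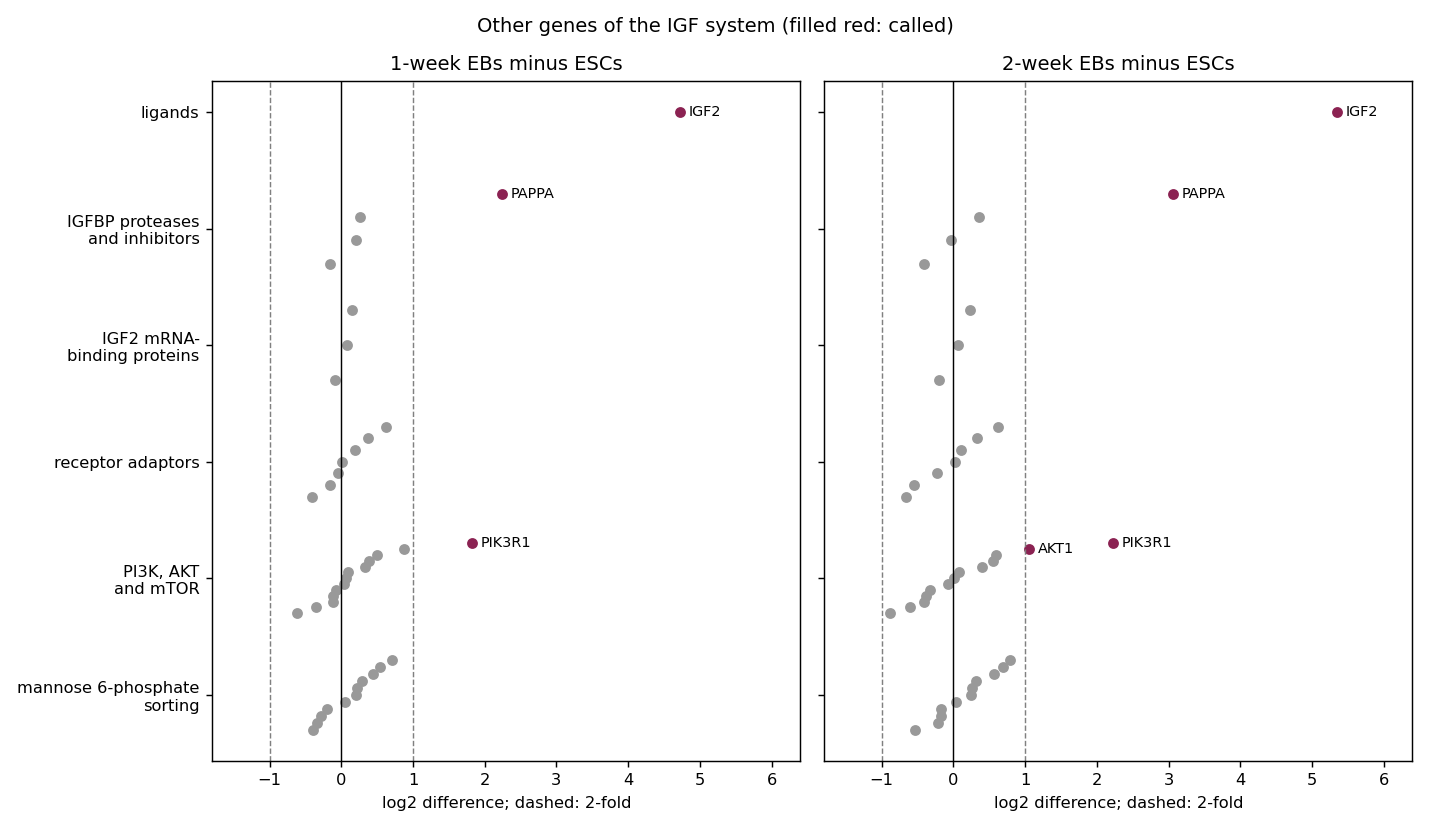
Log2 difference (x axis) of the other tested IGF system genes, by list (y axis), for 1-week EBs minus ESCs (left) and 2-week EBs minus ESCs (right). Each point is 1 gene, red points were called and dashed lines mark 2-fold. IGF2, PAPPA and PIK3R1 are called at both times and AKT1 at 2 weeks. The IGF2 points are fitted values against ESCs in which IGF2 was undetected.

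Markers of several cell types also differed between the groups, and their relation to the binding proteins was not computed. IGFBP2 and IGFBP6 fell at 1 week, when many of these markers rose. In these mixtures more cells of a type and more RNA per cell cannot be told apart, nor can fewer cells and less RNA per cell where a transcript fell. Markers undetected in ESCs passed the detection filter only through EB arrays, so that their direction in the counts below was largely set by the filter. Of 9 mesenchyme markers, 8 rose at both times, and their mean log2 level per array was 7.40 to 7.76 in ESCs, 11.75 to 12.15 at 1 week and 12.56 to 12.67 at 2 weeks. COL3A1, LUM, DCN and POSTN, 4 of the 9, were undetected in ESCs and detected in both EB groups. All 8 liver and yolk sac markers rose at both times, with means of 5.97 to 6.17 in ESCs, 11.04 to 11.06 at 1 week and 11.21 to 11.48 at 2 weeks, and 6 of the 8 were undetected in ESCs.

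Of 6 tested endothelial markers, 4 were called higher at both times, with means of 6.53 to 6.68, 7.75 to 7.96 and 8.44 to 8.55 in ESCs, 1-week and 2-week EBs. ESAM, 1 of these 4, was undetected in both 1-week EBs and ESCs, so its 1-week call has no measured fold, and TIE1 was undetected in all groups. Of 6 neural markers, 3 were higher at 1 week and 4 at 2 weeks, with means of 7.46 to 7.69, 8.20 to 8.71 and 9.02 to 9.47 over the same groups, and SOX1 was undetected in all of them. Of 5 cardiac and smooth muscle markers, 3 were higher at both times, with means of 9.41 to 9.49, 11.13 to 11.47 and 11.13 to 11.29. The hypoxia list, with 7 tested genes, had 1 higher at 1 week, and 1 higher and 3 lower at 2 weeks. The 7 pluripotency markers were detected in all groups and 0 were called, with means of 13.60 to 13.67 in ESCs, 13.49 to 13.64 at 1 week and 13.17 to 13.27 at 2 weeks. The part of these markers' cells in the levels of the binding proteins was not tested.

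The genes whose profile over the 12 arrays was closest to a called member were found by the root mean square log2 difference after removing each gene's mean, among 10561 other genes. For IGFBP3 these were LRRN4 (0.152), HOPX (0.153) and SLC39A2 (0.157), and for IGFBP5 they were CDH6 (0.125), ZFHX4 (0.148) and TYMP (0.148). For IGFBP7 they were EPSTI1 (0.180), PIGH (0.205) and NHERF1 (0.236). The profile of IGFBP6 was closest to HBQ1 (0.149), ZNF775 (0.161) and NCCRP1 (0.162), and that of IGFBP2 to IGSF21 (0.159), SELENOM (0.164) and LFNG (0.171). With 3 groups, many genes share such profiles, and the arrays share RNA and normalization.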

How the data were processed

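Total RNA of 4 ESC, 4 1-week EB and 4 2-week EB samples was measured on Illumina HumanWG-6 v3 arrays with 48803 probes. In the deposited non-normalized table, each probe had 1 intensity and 1 detection p-value for each array, per the file headers. The deposited series matrix held the authors' log2 values, whose centring and making are not given in the sources used here. Its median was 6.68 in every column, and it correlated with the signals of the same array at 0.998 to 0.999 on 11 arrays and at 0.938 on the second 2-week array, which settles its direction. It served as an alternative only.

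Signals were normalized with neqc of limma 3.58.1 (R 4.3.3), which removes any change shared by most transcripts. Its offset of 16, added to each signal before the log, shrinks differences of dim probes. Probes with detection p under 0.01 on at least 4 arrays were kept (15921). Names came from the platform annotation (27578 probes with 1 symbol, 13 with several, 21212 unnamed), and 27541 matched GRCh38.p14 by Entrez ID with 0 symbols updated. Groups came from the sample titles. The fit used lmFit and eBayes on all 12 arrays, with Benjamini-Hochberg adjustment over probes, and the procedure was tested on simulated data. Only the bounds, given as at least a stated fold, used a floor. This floor was the level of the dimmest detected probe on each array and lay between 6.67 and 7.28. Where no array of a group detected a probe, its values under the floor were raised to it for the bound. The fits, tests and listed values used the normalized values without a floor. Precision is limited by the number of arrays.

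Named are all 9 members, the ligands, proteases, IGF2 mRNA-binding proteins and called genes of the other IGF lists, each other gene by its brightest kept probe, and the 3 genes nearest in profile to each called member. Members and lists were chosen with earlier results of these data known. Alternatives were other scaling, background, filters, probe choice, samples, the series matrix and blocks. Per the labels, each group has replicates 1 to 4. Deviations from group means of same-number arrays correlated at 0.138 to 0.253 between 1-week EBs and ESCs. Arrays of corresponding pairs with other numbers correlated at 0.126 to 0.258, so that the numbers did not stand out from the array pairs. Of the 12 arrays, 3 correlated best with arrays of their own number in the other groups. The reported tests did not pair the arrays, and replicate numbers and array pairs served as blocks in alternatives only. For same-number arrays the range was -0.049 to 0.023 between 2-week EBs and ESCs and -0.095 to 0.151 between 2-week and 1-week EBs.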

Additional observations from a re-analysis of the deposited data

Results flagged for a closer look

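For 5 members, the difference from ESCs was not the same at both times, judged by the direct comparison of 2-week with 1-week EBs in limma at an adjusted p under 0.05. This took in 7 of the 10 tested probes, where 22.8% of all tested probes passed. IGFBP3 and IGFBP5 count here with 2 probes each. The log2 difference, 2-week minus 1-week EBs, was 0.87 for IGFBP3 probe 1 and 0.99 for IGFBP3 probe 2, which were already higher than in ESCs at 1 week. It was 0.95 for IGFBP5 probe 1 and 0.71 for IGFBP5 probe 2, which were likewise higher at 1 week. IGFBP2 gave 0.95 and IGFBP6 gave 0.63, in each case a gain after a low at 1 week. IGF1R alone was lower, at -0.43. In the series matrix IGF1R gave -0.20 (adjusted p = 0.494), and the IGFBP5 probes gave 0.29 and 0.064 (adjusted p = 0.772 and 0.955), with the second 2-week array standing apart there. In all 7 the 4 arrays of 2-week EBs lay on 1 side of the 4 arrays of 1-week EBs. The 7 were chosen by their adjusted p in this same comparison, which makes such a separation likely. It therefore adds no support, and the 30.0% of all tested probes for which it held were not chosen in this way. No array stood apart from its group in any of 33 group profiles tested.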

How the results depend on the processing

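Over 13 alternatives and 12 fits that left out 1 array, calls and directions were kept in 748 of 774 and 704 of 720 values for single probes. The alternatives in filter, probe choice, groups fitted and blocks used the same normalized values in a balanced design. Their log2 differences could not move, so directions were fixed there and only the adjusted p could change a call. The 748 of 774 therefore overstates how far the results were put to a test. Leaving out each array gave 6 to 7 called member probes at 1 week, 5 at 2 weeks and 0 to 1 between the weeks. Of all 15921 probes, 1348 to 1527, 2153 to 2365 and 202 to 223 were called in these fits, in the same order. With the replicate block over all arrays, or over only the groups compared (added after seeing the data), and with array pairs as a block, the counts were 7, 5 and 0, and no call changed. With the replicate block over all arrays, 8.85%, 14.1% and 1.28% of all probes were called. A block leaves every log2 difference here as it was, so calls near the 2-fold minimum could not cross it. With 1 probe per gene, 3 of 8 probes were called at 2 weeks, where 14.3% of all probes were called, since IGFBP3 and IGFBP5 then count once. IGFBP7, whose call was largely set by the filter, was among them. Between the weeks, 1 was called in the series matrix (IGFBP3 probe 2 at 1.09, where 0.673% of all probes were called). Without the second 2-week array, an alternative also added after seeing the data, 1 other was called there (IGFBP5 probe 1 at 1.04, where 0.660% were called). From arrays 1 and 2 the count was 1 (1.82% of all probes) and from arrays 3 and 4 it was 2 (1.83%). The fitted IGFBP7 differences of 1.96 at 1 week and 2.31 at 2 weeks were 1.09 and 1.34 without background correction. For IGF2R between the weeks, values turned to -0.13 with equal medians, -0.64 in the series matrix, -0.036 there without the second 2-week array, -0.0054 from arrays 1 and 2, and -0.038 to 0.053 with arrays left out. The 2-week IGF2R value turned to -0.34 in the series matrix, and IGFBP7 between the weeks to -0.10 from arrays 1 and 2. Among uncalled list genes, IGF2BP1 at 1 week turned to -0.078 from arrays 1 and 2 and ran between -0.014 and 0.18 with arrays left out. At 2 weeks it turned to -0.44 in the series matrix, -0.023 there without the second 2-week array, -0.010 from arrays 3 and 4, and ran between -0.013 and 0.11 with arrays left out. Between the weeks it turned to 0.23 from arrays 1 and 2 and ran between -0.11 and 0.086. IGF2BP2 turned to -0.044 between the weeks with equal medians. From arrays 3 and 4 it turned to -0.022 at 1 week, -0.034 at 2 weeks and -0.012 between the weeks, and IGF2BP3 at 1 week to 0.039. STC2 at 2 weeks turned to 0.12 from arrays 1 and 2 and ran between -0.10 and 0.0085 with arrays left out. The causes were not tested. Over all probes, the called counts were 1409, 2240 and 204 in the 3 comparisons, against 826, 1395 and 90 without background correction, and 885 and 107 at 1 week and between the weeks in the series matrix. The share of higher among called probes was 62% at 1 week and 61.8% between the weeks, against 74.9% and 44.7% with equal medians. Between the weeks it was also 73.3% without background correction and 75.2% in the series matrix without the second 2-week array. Low signal limits IGFBP1 and IGFBP7 most, and IGF1R was also dim.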
